A study of Homo sapiens with 6 samples.

Results

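The 9 genes described here supply most of the route by which a cell shows peptides on MHC class I molecules. They were taken by name from the 60664 genes of the count table, with the primary-assembly identifiers for the HLA genes. They are the heavy chains HLA-B, HLA-C and HLA-E, the light chain B2M, the peptide transporter subunits TAP1 and TAP2, the peptide-loading factor TAPBP, and the immunoproteasome subunits PSMB8 and PSMB9. All 9 were abundant enough to be among the 15130 genes tested.

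RNA was sequenced from SiHa PR cells, the parental counterpart of a lymph node metastatic derivative of the human cervical squamous carcinoma line SiHa, in 3 control libraries and 3 libraries of SiHa PR cells overexpressing P4HA3, a subunit of a collagen prolyl hydroxylase. The control libraries are labelled as SiHa PR cells with no further treatment named, and the study's methods describe P4HA3 cDNA carried by a lentiviral vector. The labels give no harvest time, do not say whether the overexpressing cells were a pool or 1 clone, and do not say whether libraries of a group came from separate cultures, so the p-values measure the spread between these libraries, which may be technical. P4HA3 was at 3.53, 2.91 and 3.80 counts per 1000000 (CPM, scaled by the TMM method) in control cells and at 1934, 1991 and 1936 CPM in the overexpressing cells, a log2 fold change of 9.15 (SE 0.101).

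Total counts ran from 21773488 to 24939948 per library, and 21992 to 22431 genes had a count. The growth protocol in the labels describes uterine smooth muscle, whereas the cell line label and the study name SiHa. The 6 epithelial markers summed to 2563 to 2894 CPM in control cells and 2321 to 2619 CPM with overexpression, carried by KRT8 and KRT18, while the squamous markers KRT5 and TP63 had at most 13 counts in any library. The smooth muscle markers DES, MYH11 and CNN1 had at most 9 counts, and the list summed to 95.4 to 107 CPM in control cells and 104 to 121 CPM with overexpression, mostly SMTN. ACTG2, of the same list, had 0, 1 and 30 counts in the control libraries and 40, 1 and 44 in the overexpressing libraries, so that it differed between libraries within both groups. Across all genes tested, 20.8% were called in the quasi-likelihood test of edgeR, at a Benjamini-Hochberg adjusted p under 0.05, with 11.4% lower and 9.36% higher in the overexpressing cells.

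MHC class I molecules carry peptides from proteins made inside the cell to its surface, where CD8+ T cells and natural killer cells read them. Proteasomes cut the peptides, TAP1 and TAP2 together pump them into the endoplasmic reticulum, TAPBP (tapasin) holds the empty heavy chain and B2M at the transporter, and the loaded complex moves to the surface. Interferons raise the transcription of many of these genes through upstream elements bound by interferon regulatory factors, NF-kappaB and the assembly that recruits NLRC5, and reduced transcription of the pathway is a known feature of many carcinomas.

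The upstream sequences of 5 of these genes are shown: HLA-B, TAP1 and PSMB9 fell, HLA-C is the close relative of HLA-B, and B2M is the shared light chain. Whether these sequences bear on the fold changes was not tested. Each line gives the 250 bases before the annotated start in RefSeq (GRCh38.p14), 5′ to 3′ on the gene's own strand. Capitals mark every match, on either strand, to a CCAAT box, a kappaB site, an interferon regulatory factor core (AANNGAAA) or a CRE core with the letters TGACG. Some matches overlap one another.
HLA-B (chr6:31357180-31357429, minus strand): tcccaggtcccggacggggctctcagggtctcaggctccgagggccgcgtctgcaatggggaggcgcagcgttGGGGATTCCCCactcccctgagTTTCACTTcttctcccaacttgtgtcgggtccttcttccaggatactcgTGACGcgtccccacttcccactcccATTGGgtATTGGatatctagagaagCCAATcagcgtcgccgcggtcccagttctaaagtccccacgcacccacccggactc
HLA-C (chr6:31272093-31272342, minus strand): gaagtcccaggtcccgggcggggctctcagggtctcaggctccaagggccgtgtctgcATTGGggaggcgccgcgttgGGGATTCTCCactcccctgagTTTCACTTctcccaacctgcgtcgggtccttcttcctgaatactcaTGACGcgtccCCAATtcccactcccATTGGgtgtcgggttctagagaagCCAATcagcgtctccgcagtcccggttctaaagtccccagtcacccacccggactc
B2M (chr15:44711267-44711516, plus strand): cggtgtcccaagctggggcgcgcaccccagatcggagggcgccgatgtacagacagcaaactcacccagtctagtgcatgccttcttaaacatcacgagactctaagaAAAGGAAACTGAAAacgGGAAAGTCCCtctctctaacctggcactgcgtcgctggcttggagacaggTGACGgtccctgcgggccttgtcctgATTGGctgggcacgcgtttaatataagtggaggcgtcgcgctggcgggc
TAP1 (chr6:32853705-32853954, minus strand): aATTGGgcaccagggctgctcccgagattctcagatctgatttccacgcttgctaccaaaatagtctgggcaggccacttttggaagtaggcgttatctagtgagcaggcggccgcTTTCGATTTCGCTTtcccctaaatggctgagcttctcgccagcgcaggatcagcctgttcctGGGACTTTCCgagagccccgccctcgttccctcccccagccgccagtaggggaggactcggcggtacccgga
PSMB9 (chr6:32853942-32854191, plus strand): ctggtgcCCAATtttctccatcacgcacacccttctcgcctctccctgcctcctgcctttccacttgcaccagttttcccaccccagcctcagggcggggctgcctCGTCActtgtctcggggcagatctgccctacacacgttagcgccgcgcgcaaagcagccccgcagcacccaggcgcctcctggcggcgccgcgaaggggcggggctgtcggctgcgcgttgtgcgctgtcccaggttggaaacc

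Entries were found for 8 of the 9 genes, all but HLA-E. The same letters occurred widely: of 35116 promoters of this length, 20.3% held the interferon regulatory factor core, 21.2% the CRE core, 32% a CCAAT box and 9.96% a kappaB site. HLA-B, HLA-C and B2M held all 4 motifs. The HLA-B and HLA-C stretches were 91.9% identical over 246 aligned bases, and HLA-C had 4 CCAAT boxes against 3 in HLA-B. The TAP1 stretch shown, the first of its 2 entries, held 2 interferon regulatory factor cores, a CCAAT box and a kappaB site. The PSMB9 stretch held a CRE core and a CCAAT box and neither of the others. The annotated start of PSMB9 lies 488 bases from that of TAP1 in the opposite direction, and the 2 stretches overlap at their far ends. The CCAAT box listed for TAP1 and that listed for PSMB9 are the same site, within this overlap. The interferon regulatory factor cores and kappaB site of TAP1 lie between the 2 starts, outside the bases shown for PSMB9. TAP2 held 2 interferon regulatory factor cores and a CRE core, TAPBP held 2 interferon regulatory factor cores and a kappaB site, and the first of the PSMB8 entries held only a CRE core. A match of letters is a description of the reference and not evidence of binding in these cells.

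HLA-B, TAP1 and PSMB9 fell in the P4HA3-overexpressing cells, by 20.9%, 16.7% and 27% respectively, and none of the 9 rose at the adjusted threshold. The 3 genes are 33.3% of the 9, beside 11.4% of all genes tested that were called lower. The other 6 did not pass the test, 5 of them with a lower and 1 (TAP2) with a higher level in overexpressing cells. The median log2 fold change of the 9 was -0.21, against 0.006 over all genes tested. In 6 of the 9 (66.7%) every overexpressing library lay below every control library, which 20.4% of all genes tested also showed. At an unadjusted p under 0.05 the count was 7 lower and 0 higher, beside 19.4% lower and 19.3% higher of all genes tested, and DESeq2 and limma-voom also called 0 higher. These shares are set against genes of any base composition, which the fold changes followed (below). With the trend over GC content and transcript length taken out, 2 of the 9 were called lower, beside 7.96% of genes. The 9 were also chosen with earlier results of these data known.

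**Figure D1:**
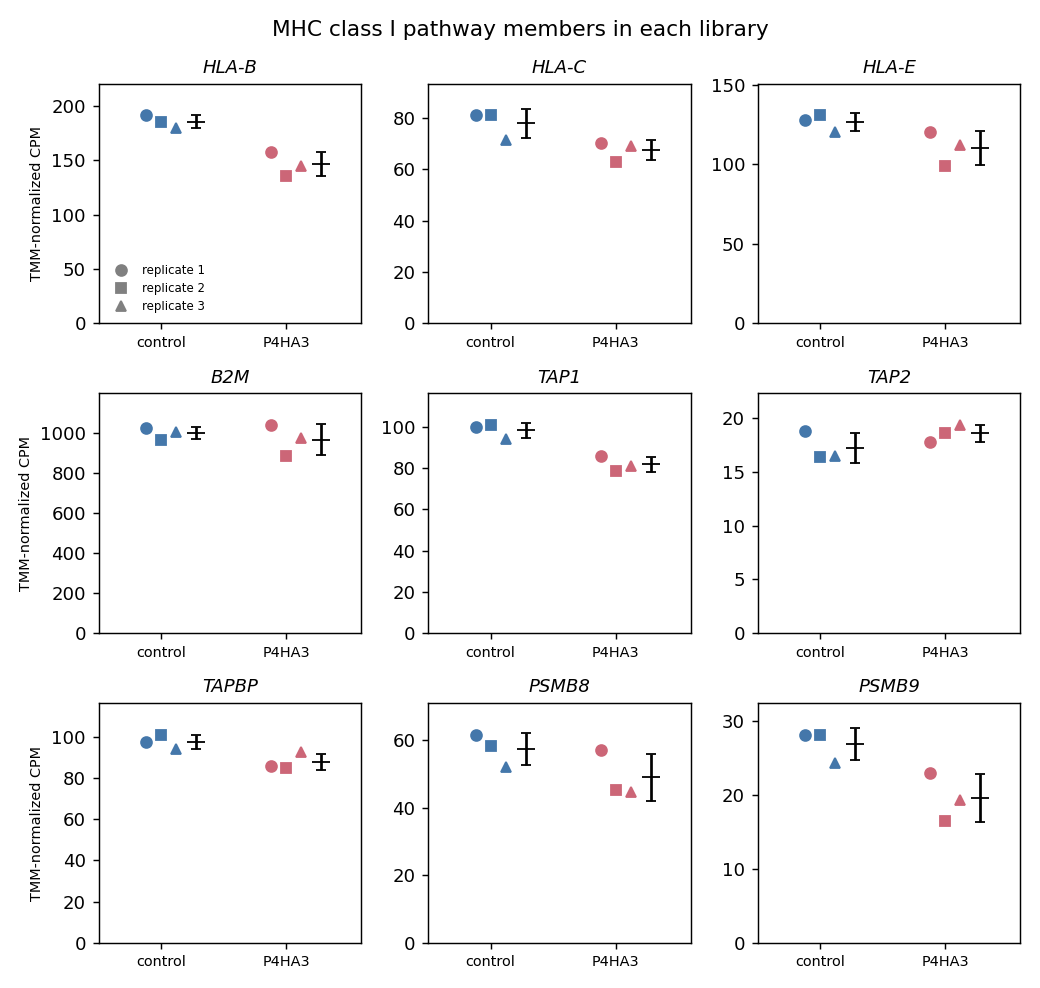
Each panel plots 1 gene, with TMM-normalized CPM on the vertical axis from 0 and the 3 control and 3 P4HA3 libraries as points, shaped by replicate number, and the black bar giving the mean and SD. The groups are separate for HLA-B, HLA-C, HLA-E, TAP1, TAPBP and PSMB9 and overlap for B2M, TAP2 and PSMB8.

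The heavy chains bind the peptide. HLA-B (ENSG00000234745, chromosome 6, 31353872 to 31367067, minus strand, GRCh38) presents peptides to CD8+ T cells and was at 192, 185 and 180 CPM in the control libraries and at 158, 136 and 145 CPM in the overexpressing libraries. The lowest control library was above the highest overexpressing library. The means were 185 ± 6.03 and 147 ± 11.0 CPM (SD, n = 3 each), a log2 fold change of -0.34 (SE 0.0641, adjusted p = 0.00789). The call was lost when control replicate 1 (adjusted p = 0.0512) or control replicate 2 (adjusted p = 0.0524) was left out, and over all alternatives the adjusted p ran from 4.15e-05 to 0.135.

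HLA-C (ENSG00000204525, chromosome 6, 31268749 to 31272130, minus strand) presents peptides and is also a ligand of inhibitory receptors of natural killer cells. It was at 81.1, 81.3 and 71.6 CPM in control cells and at 70.5, 63.1 and 69.0 CPM with overexpression. The groups did not overlap, although control replicate 3 lay close to the overexpressing libraries. The log2 fold change of -0.21 (SE 0.0713) did not pass the test (adjusted p = 0.0619).

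HLA-E (ENSG00000204592, chromosome 6, 30489509 to 30494194, plus strand) displays leader peptides of other class I chains to natural killer cells. Its control libraries were at 128, 131 and 120 CPM and its overexpressing libraries at 120, 99.0 and 112 CPM. The groups were separated by 0.586 CPM, between control replicate 3 and overexpression replicate 1. Its log2 fold change was -0.19 (SE 0.0734, adjusted p = 0.0813).

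B2M (ENSG00000166710, chromosome 15, 44711358 to 44718851, plus strand), the light chain of every class I molecule and the only 1 of the 9 encoded outside the MHC, was at 1026, 965 and 1007 CPM in control cells and at 1042, 887 and 975 CPM with overexpression. The highest and the lowest of the 6 values were both in overexpressing libraries. B2M had a log2 fold change of -0.05 (SE 0.0703, adjusted p = 0.65).

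The reference transcripts of HLA-B and HLA-C were 92.5% identical over 1535 aligned bases, and the longest stretch they shared without a difference was 66 bases. None of the windows of 150 bases, the read length, was shared between any pair of HLA-B, HLA-C and HLA-E transcripts. The alleles of SiHa were not examined and the counting's treatment of reads with several matches is not given in the sources used here, so the split of reads among these chains is uncertain. In the GENCODE 44 annotation 30.7% of the exonic bases of HLA-B also belong to DHFRP2, a pseudogene on the same strand, outside the HLA-B coding sequence.

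TAP1 and TAP2 form the transporter as a heterodimer. TAP1 (ENSG00000168394, chromosome 6, 32845209 to 32853816, minus strand) was at 99.7, 101 and 93.9 CPM in control cells and at 85.6, 78.6 and 81.0 CPM with overexpression. All 3 overexpressing libraries were below all 3 control libraries. The means were 98.2 ± 3.68 and 81.7 ± 3.57 CPM (SD, n = 3 each), a log2 fold change of -0.26 (SE 0.0589, adjusted p = 0.0147). The call was lost without control replicate 1 (adjusted p = 0.0787), control replicate 2 (0.078) or overexpression replicate 3 (0.0685), and over all alternatives the adjusted p ran from 0.00386 to 0.219.

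TAP2 (ENSG00000204267, chromosome 6, 32821833 to 32838739, minus strand) was at 18.8, 16.4 and 16.5 CPM in control cells and at 17.8, 18.6 and 19.4 CPM with overexpression. Control replicate 1 lay within the range of the overexpressing libraries. TAP2 had a log2 fold change of 0.11 (SE 0.0875, adjusted p = 0.368). A readthrough gene on the same strand covers 19.5% of the exonic bases of TAP2, with 1932 of these 2023 bases in the TAP2 coding sequence. PSMB8-AS1, antisense to TAP1, overlaps 14.2% of the exonic bases of TAP1. The libraries were strand-specific, but the strand setting of the counting is not given in the sources used here.

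TAPBP (ENSG00000231925, chromosome 6, 33299694 to 33314284, minus strand) was at 97.4, 101 and 93.9 CPM in control cells and at 85.8, 84.9 and 92.3 CPM with overexpression. The groups did not overlap, and overexpression replicate 3 lay nearest to the control libraries. The log2 fold change was -0.15 (SE 0.0587, adjusted p = 0.0888).

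The immunoproteasome subunits replace constitutive catalytic subunits and alter which peptides are cut. PSMB8 (ENSG00000204264, chromosome 6, 32840717 to 32844679, minus strand), which takes the place of PSMB5, was at 61.6, 58.1 and 52.1 CPM in control cells and at 57.0, 45.1 and 44.7 CPM with overexpression. Overexpression replicate 1 lay within the control range and the other 2 lay below it. The log2 fold change was -0.23 (SE 0.101, adjusted p = 0.126).

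PSMB9 (ENSG00000240065, chromosome 6, 32844136 to 32859851, plus strand), which takes the place of PSMB6, was at 28.2, 28.2 and 24.4 CPM in control cells and at 23.0, 16.5 and 19.4 CPM with overexpression. The groups did not overlap, and this was the largest fold change of the 9 in either direction. The means were 26.9 ± 2.18 and 19.6 ± 3.24 CPM (SD, n = 3 each), a log2 fold change of -0.45 (SE 0.117, adjusted p = 0.0248). The call was lost without control replicate 1 (adjusted p = 0.0963), control replicate 2 (0.122) or overexpression replicate 3 (0.0874), and over all alternatives the adjusted p ran from 0.000122 to 0.122. PSMB8 and PSMB9 share 139 exonic bases on opposite strands. PSMB8-AS1 overlaps 17.3% of the exonic bases of PSMB8, on the opposite strand, and 5.21% of those of PSMB9, on the same strand.

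The direction of the whole table followed base composition. Across 15107 genes the log2 fold change and the GC content of the transcript had a Spearman correlation of -0.58, a description across genes within the same 6 libraries. The 8 members on chromosome 6 had GC contents of 48.9% to 60.1%, with TAP2 the lowest and HLA-C the highest, and B2M had 39.1%. When the trend of each library over GC content and transcript length was taken out, an adjustment that also removes any part of a group difference following these properties, 7.96% of genes were called lower and 10.6% higher, so that 57.1% of the calls were higher against 45% before.

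After that correction HLA-B and PSMB9 were still called lower and TAP1 was not. PSMB9 kept most of its difference, with a log2 fold change of -0.36 (adjusted p = 0.0125). HLA-B was at -0.14 (SE 0.0393, adjusted p = 0.0341) and TAP1 at -0.10 (adjusted p = 0.0803). HLA-C turned to 0.02 (adjusted p = 0.83) and TAPBP came to -0.01 (adjusted p = 0.928). HLA-E was at -0.07 (adjusted p = 0.325) and PSMB8 at -0.09 (adjusted p = 0.394), while TAP2 stayed positive at 0.08 (adjusted p = 0.493). B2M, the member poorest in GC, moved further from 0, to -0.19 (adjusted p = 0.0942). It was called lower with the correction in 2 alternatives, together with the replicate block (-0.19, adjusted p = 0.00841) and without overexpression replicate 1 (-0.27, adjusted p = 0.00735), and its adjusted p over all alternatives reached 0.93. The median of the 9 was -0.09, beside 0.019 over all genes. With the correction and 1 library left out, the PSMB9 call held in 3 of 6 fits, the HLA-B call in 2 and the TAP1 call in 0.

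**Figure D2:**
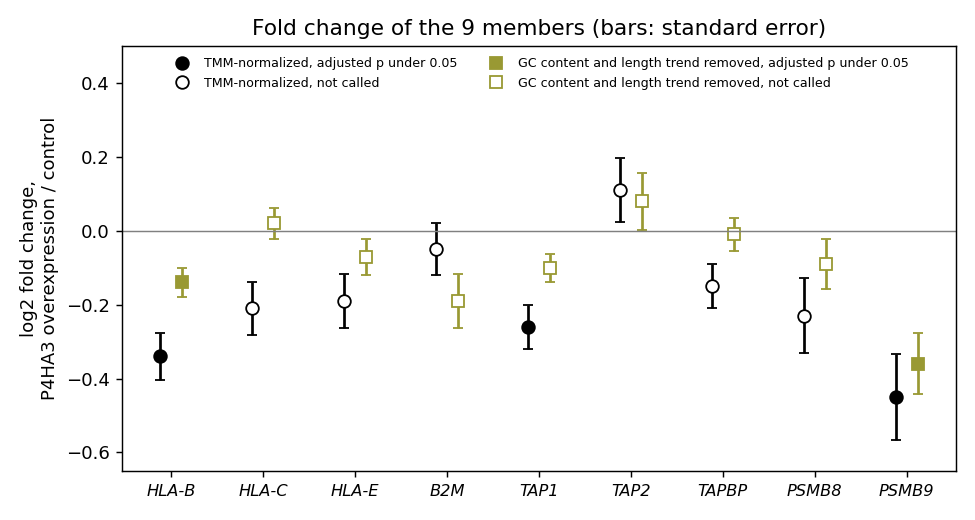
The log2 fold change of each member (vertical axis, P4HA3 overexpression over control, bars the standard error) is plotted from TMM-normalized counts (circles) and after the trend of each library over GC content and length was taken out (squares), filled where the adjusted p was under 0.05. PSMB9 was at -0.45 and -0.36, HLA-B at -0.34 and -0.14 and TAP1 at -0.26 and -0.10, the last no longer called.

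Levels of different genes were compared as CPM per kilobase of the canonical transcript. In control cells B2M stood highest at 1060 ± 33.2 CPM per kilobase, rank 52 among all genes, and TAP2 lowest at 3.05 ± 0.242, rank 9326 (SD, n = 3). HLA-B was at 121 ± 3.93. PSMB8 (50.9 ± 4.26), HLA-C (50.6 ± 3.63) and HLA-E (49.6 ± 2.07) followed, and each overlapped its neighbour in this order over the control libraries. TAP1 was at 36.6 ± 1.37, TAPBP at 28.2 ± 0.981 and PSMB9 at 26.5 ± 2.14, the last pair overlapping.

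The constitutive proteasome subunits were all above their inducible counterparts in these cells. In CPM per kilobase, PSMB5 was 5.6 ± 0.256-fold above PSMB8, PSMB6 was 9.44 ± 0.278-fold above PSMB9 and PSMB7 was 18.8 ± 0.214-fold above PSMB10 in control cells (SD, n = 3). With overexpression these folds were 6.03 ± 0.164, 12.8 ± 0.824 and 19 ± 2.3. TAP1 exceeded TAP2 by 12 ± 0.893-fold in control cells and 9.25 ± 0.739-fold with overexpression. How the counting treated reads that TAP2 shares with the readthrough gene is not given in the sources used here. The TAP2 level, its rank and its distance from TAP1 are therefore uncertain.

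**Figure D3:**
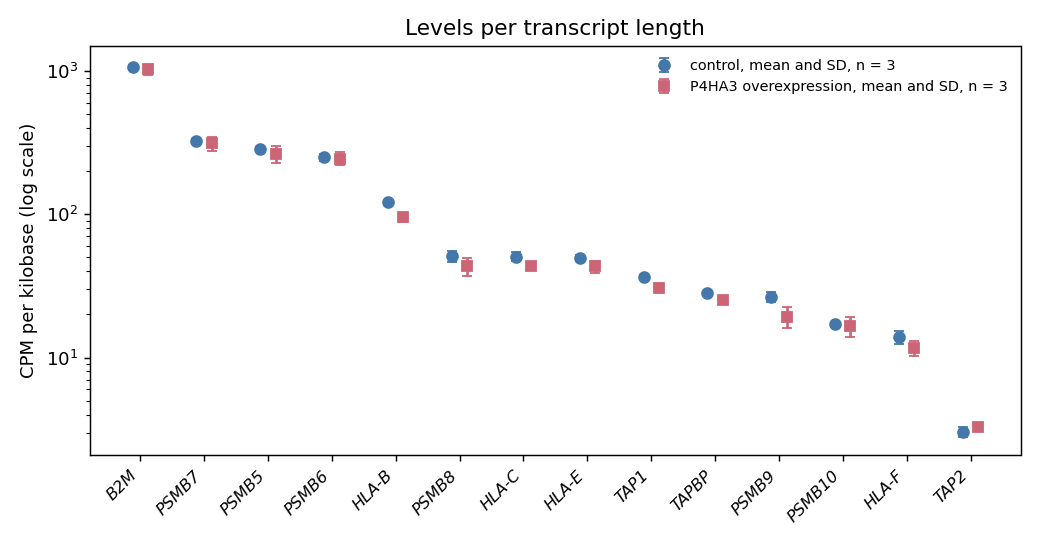
Mean CPM per kilobase of transcript (log axis) with SD over 3 libraries is plotted for the 9 members and for HLA-F, PSMB5, PSMB6, PSMB7 and PSMB10, in order of the control level, for control (circles) and P4HA3-overexpressing cells (squares). The levels run from 1060 for B2M to 3.05 for TAP2 in control cells.

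Ratios of partner genes within a library do not depend on its total count. Of the 8 ratios compared, 6 did not overlap between the groups. Several of the 8 share a gene and so are not independent, and the share without overlap among other gene pairs was not computed. With 3 libraries against 3 the two-sided exact permutation test cannot go below p = 0.1, so none could pass 0.05, and those 6 reached that limit (0.133 after Benjamini-Hochberg adjustment over the 8). The log2 ratio of PSMB9 to PSMB6 was -2.90, -2.92 and -2.98 in control cells and -3.28, -3.47 and -3.37 with overexpression, a difference of -0.44. This was the largest of the 8, and the control libraries lay close together.

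The log2 ratio of TAP1 to TAP2 was 2.41, 2.62 and 2.51 in control cells and 2.26, 2.08 and 2.06 with overexpression, a difference of -0.38. That of HLA-B to B2M was -2.42, -2.39 and -2.49 in control cells and -2.72, -2.70 and -2.75 with overexpression, a difference of -0.29. In both, every overexpressing library lay below every control library. The ratios of HLA-E to B2M (-0.15), HLA-B to HLA-C (-0.13) and PSMB8 to PSMB5 (-0.11) were also lower without overlap. HLA-C to B2M differed by -0.16 with overlapping groups (exact p = 0.2), and the ratio of PSMB10 to PSMB7, the pair with no member among the 9, averaged -4.25 in both groups (exact p = 1).

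These ratios pair genes of unlike base composition to different degrees. Computed from the fold changes with the GC content and length trend removed, the difference for HLA-B to B2M (58.9% and 39.1% GC) went from -0.29 to 0.05, that for HLA-C to B2M from -0.16 to 0.20 and that for HLA-E to B2M from -0.15 to 0.11. The difference for PSMB9 to PSMB6 (52.4% and 55.2% GC) was -0.43 before and -0.48 after. For TAP1 to TAP2 it was -0.37 before and -0.19 after, and for HLA-B to HLA-C (58.9% and 60.1% GC) -0.13 and -0.15. The corrected differences carry no test.

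Around the 9 genes, 8 lists of the same and neighbouring pathways held 77 genes, of which 70 were tested. Of these, 7 were called higher and 17 lower, beside 9.36% and 11.4% of all genes tested, and after the GC content and length correction 5 and 14, with 15 genes called both times. Of the 24 uncorrected calls, with 1 library left out, CANX, OAS1 and FCGRT were called in 6 of 6 fits, ERAP1, IFI6 and IRF7 in 5, and HLA-DRB1 and HLA-DMA in 4. PSME1, PDIA3, UGGT1, TAPBPL, RFXANK, NFYB, IRF1, ISG15 and RAET1E were called in 3, EZH2, JAK1, CIITA, HLA-DMB and HLA-DQB1 in 2, and CD74 and RAET1G in 1. With all libraries and no correction, the calls of CIITA (adjusted p = 0.0508) and RAET1E (0.0798) were lost with DESeq2. That of EZH2 (0.0513) was lost with upper quartile normalization and that of HLA-DQB1 (0.0506) without TMM scaling. DESeq2 gave no adjusted p for CD74, HLA-DMB, HLA-DMA and HLA-DQB1. Of the class II calls, only that of HLA-DRB1 (adjusted p = 0.0117) therefore held with DESeq2. CD74 and HLA-DMB were not tested where at least 10 counts in every library were required.

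Of 2 non-classical heavy chains listed, HLA-F did not pass the test (log2 fold change -0.26, SE 0.11, adjusted p = 0.11) and was at -0.07 after the correction, and HLA-G was at or under 3 counts in every library. Both were named after their values were seen. Of 7 other proteasome genes 1 fell and 0 rose, with a median log2 fold change of -0.05. It was PSME1, a subunit of the interferon-inducible proteasome activator, at 162 ± 3.75 and 128 ± 13.1 CPM (log2 fold change -0.34, adjusted p = 0.0128; -0.26 after the correction, adjusted p = 0.00265). PSMB5 (-0.12), PSMB6 (-0.02), PSMB7 (-0.05) and PSMB10 (-0.04) did not pass the test, and all but PSMB5 were positive after the correction.

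Of 8 genes for peptide trimming, folding and loading, 4 rose, 1 fell and 3 did not pass the test, with a median log2 fold change of 0.26. CANX (calnexin, a chaperone of new heavy chains) was at 719 ± 37.0 CPM in control cells and 950 ± 49.9 CPM with overexpression (log2 fold change 0.40, adjusted p = 0.00427). ERAP1, which trims peptides in the endoplasmic reticulum, was at 22.7 ± 0.795 and 30.1 ± 1.74 CPM (0.41, adjusted p = 0.00741). PDIA3, an oxidoreductase of the loading complex, rose by 0.25 and UGGT1, which checks the folding of glycoproteins, by 0.27 on the log2 scale.

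TAPBPL, a tapasin relative that edits the peptides, fell by 0.39 on the log2 scale (adjusted p = 0.0147). After the correction 3 genes of this list were called higher and 0 lower. CANX (0.22) and ERAP1 (0.28) kept the call, PDIA3, UGGT1 and TAPBPL lost it, and CALR, another chaperone of the loading complex, gained it at 0.30 (adjusted p = 0.000749; 0.19 and 0.0729 before). CALR was named after its values were seen. These chaperones act on many glycoproteins besides class I molecules.

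Of 15 transcriptional regulators of class I genes 2 rose and 2 fell, with a median log2 fold change of -0.01. NLRC5, the activator of class I transcription, was at 54.3, 53.6 and 50.4 CPM in control cells and at 49.4, 47.5 and 49.8 CPM with overexpression. The groups did not overlap, but the log2 fold change of -0.11 did not pass the test (adjusted p = 0.211) and was 0.01 after the correction. IRF1, an interferon regulatory factor that activates class I and immunoproteasome genes, fell from 76.4 ± 1.34 to 63.1 ± 5.49 CPM (log2 fold change -0.28, adjusted p = 0.0231; -0.20 and 0.0242 after the correction).

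RFXANK, a subunit of the complex that NLRC5 joins, fell by 0.33 on the log2 scale (adjusted p = 0.026), and NFYB, a subunit of the factor that binds CCAAT boxes, rose by 0.39 (adjusted p = 0.0208). Neither was called after the correction. EZH2, the methyltransferase of the Polycomb repressive complex, rose by 0.22 (adjusted p = 0.044) and was at 0.16 after the correction (adjusted p = 0.0466). Of 9 interferon receptor and signalling genes only the kinase JAK1 was called, 0.21 higher on the log2 scale (adjusted p = 0.034).

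Of 12 interferon-stimulated genes 4 fell and 0 rose, with a median log2 fold change of -0.27. OAS1, a sensor of double-stranded RNA, was at 48.3 ± 0.308 CPM in control cells and 31.0 ± 3.67 CPM with overexpression (log2 fold change -0.64, adjusted p = 0.00181). ISG15, a ubiquitin-like modifier (-0.55), IFI6 (-0.53) and IRF7, an interferon regulatory factor (-0.45), also fell. After the correction 6 were called lower, IRF7 no longer among them. The 12 did not move evenly, since IFIT1 was at 327 ± 9.75 CPM in control cells and 326 ± 15.3 CPM with overexpression. Before the correction 10 of the log2 fold changes were negative and 2 positive. After it all 12 were negative, with IFIT1 at -0.15 (adjusted p = 0.0828). IFIT1 was named after its values were seen.

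Of 12 MHC class II genes, 7 were tested and 6 of these fell, with a median log2 fold change of -0.90, and HLA-DRA did not pass the test (-0.91, adjusted p = 0.0655, named after its values were seen). Of the 5 too low to be tested, 3 were at or under 3 counts in every library. CIITA, the activator of class II transcription, fell from 7.14 ± 0.74 to 5.23 ± 0.699 CPM (log2 fold change -0.45, adjusted p = 0.0376). HLA-DRB1 was at 4.24 ± 0.42 and 2.52 ± 0.486 CPM (-0.74, adjusted p = 0.0142) and HLA-DMA, a peptide editor of class II, at 2.53 ± 0.504 and 1.35 ± 0.0436 CPM (-0.90, adjusted p = 0.0119). CD74, the invariant chain, fell by 1.18, HLA-DMB by 1.17 and HLA-DQB1 by 0.78 on the log2 scale, each from at most 60 counts in any library. After the correction CIITA, HLA-DRB1, HLA-DMA and HLA-DMB were still called.

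Of 12 class I-like molecules and ligands of the natural killer cell receptor NKG2D, 11 were tested, 3 fell and 0 rose, with a median log2 fold change of -0.07. FCGRT, the heavy chain of the neonatal Fc receptor, which also pairs with B2M, was at 24.9, 25.2 and 23.3 CPM in control cells and at 17.2, 11.8 and 15.3 CPM with overexpression. The groups were well apart, with a log2 fold change of -0.72 (adjusted p = 0.00498) and -0.48 after the correction (adjusted p = 0.00253). The NKG2D ligands RAET1E (-0.57, adjusted p = 0.0252) and RAET1G (-0.39, adjusted p = 0.0294) fell, and RAET1E alone kept the call after the correction.

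Class I and class II genes are also high in leukocytes. Of 6 leukocyte markers PTPRC, CD3E, CSF1R and NKG7 were at or under 3 counts in every library, and the sum of the list, 91.6 to 110 CPM in control cells and 35.4 to 51.1 CPM with overexpression, was nearly all CD14 (log2 fold change -1.15, adjusted p = 0.000757). Of 4 endothelial markers, VWF, CDH5 and CLDN5 were at or under 3 counts in every library, and the list summed to 2.62 to 3.47 CPM in control cells and 1.33 to 1.58 CPM with overexpression, nearly all PECAM1 (log2 fold change -1.03, adjusted p = 0.00494). The epithelial markers KRT18 (-0.40) and CDH1 (-0.77) fell, and the smooth muscle marker TAGLN rose (0.96). The part of CD14, PECAM1, KRT18, CDH1 or TAGLN in the results was not tested. In such bulk RNA, fewer cells of a type and less RNA per cell cannot be told apart.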

How the data were processed

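RNA-seq of 3 control and 3 P4HA3-overexpressing SiHa PR libraries was analysed. By the study's methods, the authors selected poly-A RNA, made dUTP strand-specific libraries, read 150-base paired ends on a DNBSEQ-T7, mapped these with STAR to GRCh38 and obtained gene counts from HTSeq, whereas the submitters' processing notes name HISAT2. Versions and the strand setting are not given in the sources used here. The deposited values are raw counts of 60664 Ensembl genes, 21773488 to 24939948 per library, without normalization. At this depth the common biological coefficient of variation was 7.7%. The precision of each member came from its own fit, with an SE from 0.0587 (TAPBP) to 0.117 (PSMB9).

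Groups came from the sample labels. Counts were filtered with filterByExpr (minimum count 10), scaled by TMM and tested two-sided with edgeR 4.0.16 (R 4.3.3, quasi-likelihood), with Benjamini-Hochberg adjustment over 15130 genes and a threshold of 0.05. Each SE is the log2 fold change divided by the square root of its F statistic. Ratios were tested with exact permutations over the 6 libraries. Annotation was GENCODE 44, later than that of the authors, and 60463 identifiers matched. Coordinates, overlaps and transcript lengths come from it, and promoters from RefSeq. The trend on GC content and log2 transcript length was fitted per library with mgcv 1.9.3 and entered as an offset. Alternatives were other normalizations, DESeq2 1.42.0, limma-voom 3.58.1, other filters, a replicate block, the correction, and each library left out. The correction with a library left out was added after seeing the data. Replicate libraries differed beyond sampling noise, most of all overexpression replicates 1 and 2. Their chi-square per degree of freedom was 17.8, against 5.17 to 7.4 for the other pairs within a group. The edgeR and correction steps were run on simulated data that held no trend over GC content or length. The removal of such a trend was therefore not tested.

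The members and lists were chosen with earlier results of these data known. Named genes were the 9 members, P4HA3, up to 5 called genes per list with the largest fold changes, and PSMB5, PSMB6, PSMB7, PSMB10, NLRC5, IRF1 and CIITA, with exceptions stated. Of the genes this rule covers, 1 is not reported here. No set test was run.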

Additional observations from a re-analysis of the deposited data

How the results depend on the processing

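Of the 9 members, 3 were called, all lower. The count was 5 without a filter on low counts and 6 with the replicate block (HLA-B, HLA-C, HLA-E, TAP1, PSMB8 and PSMB9). With 1 library left out it ran from 0 to 6: 0 without control replicate 1 or control replicate 2, 1 without overexpression replicate 3 and 6 without overexpression replicate 1. With the GC content and length correction as well it ran from 0 to 3. No member was called higher in any alternative. Their median log2 fold change of -0.21 became -0.09 with the correction, alone or with the block, -0.26 to -0.16 with 1 library left out and -0.11 to -0.07 with both. The 24 calls in the lists ran from 3 (without control replicate 2) to 38 (without overexpression replicate 1), with 7 without control replicate 1 or overexpression replicate 3, and from 9 to 26 with the correction as well. The 7 higher became 11 with DESeq2 and 12 without the filter, and ran from 1 to 12 with 1 library left out. The 17 lower ran from 2 to 26. The ratios without overlap ran from 6 to 8. The causes were not tested.

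The correction, alone and with the block, turned the log2 fold changes of HLA-C (0.02 and 0.02), PSMB6 (0.12 and 0.12), PSMB7 (0.01 and 0.00), PSMB10 (0.20 and 0.20) and NLRC5 (0.01 and 0.01), none of them called with all libraries and neither the correction nor the block. HLA-C was called lower with the block alone, without control replicate 3 and without overexpression replicate 1. With 1 library left out, with or without the correction, values ran from -0.26 to 0.03 for HLA-C, -0.10 to 0.16 for PSMB6, -0.14 to 0.06 for PSMB7, -0.15 to 0.28 for PSMB10, -0.14 to 0.04 for NLRC5, -0.27 to 0.01 for B2M, -0.19 to 0.03 for TAPBP and -0.23 to 0.02 for PSMB5. Over 38 named genes and 830 refitted values, 590 kept direction and side of the threshold, 186 lost the call, 12 gained it and 42 changed sign.

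The libraries numbered 1 deviated weakly together (r = 0.25). Those numbered 2 and 3 did not (r = -0.0486 and 0.0297), so the replicate numbers were not treated as pairs. The replicate block gave 4313 calls over all genes against 3147 without it, and 30 calls in the lists. Control replicate 3 correlated best with overexpression replicate 2 (r = 0.268).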
